A study of Rattus norvegicus with 20 samples.

Results

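Cytochrome P450 families 1 to 4 were represented on the array by 47 gene names of 35581 in all, through 59 of 41012 distinct probes. They were chosen by gene name alone: every non-control probe whose name in the scanner files begins with Cyp, a family digit of 1 to 4 and a letter. RNA came from primary cultures of neonatal rat heart, labelled as cardiomyocytes, the contracting cells of heart muscle, which had grown for one day in DMEM medium before treatment. The treated cultures received diclofenac, a cyclooxygenase inhibitor used against pain and inflammation, at 1/25, 1/5 or 1 times a reference concentration, for 24 h or 6 h. Each of the 6 treated groups had 3 arrays, and the untreated group had 2, although the series text states 3 replicates per group. Neither its molarity nor the time at which untreated cells were harvested is given in the labels. Nothing there says whether replicates were separate cultures, so the spread behind the p-values may be technical. Groups are named below by fraction and time, as in the 1/5 group at 24 h.

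P450 enzymes of families 1 to 4 are haem proteins of the endoplasmic reticulum that insert an oxygen atom into drugs, steroids and fatty acids, with electrons from P450 oxidoreductase (Por). Family 1 is switched on by ligands of the aryl hydrocarbon receptor. Families 2 and 3 hold the main drug-oxidising forms of liver. In the heart the best studied forms are the 2J and 2C epoxygenases, which turn arachidonic acid into epoxyeicosatrienoic acids, and the family 4 omega-hydroxylases, which turn it into 20-HETE.

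The following designed probes are shown because the results turn on them. All 3 are 60 bases long, printed 5′ to 3′ in the sense of the transcript, with positions on build rn3 as the files give them. The Cyp1b1 probe lies at chr6:2548660-2548719 on the minus strand. The Cyp2d22 probe, whose accession now carries the symbol Cyp2d4, lies at chr7:120777448-120777507 on the minus strand. The Cyp2e1 probe lies at chr1:201077728-201077787 on the plus strand and, with Cyp1a1, was one of 2 member probes spotted 10 times on every array.
Cyp1b1 A_44_P191778: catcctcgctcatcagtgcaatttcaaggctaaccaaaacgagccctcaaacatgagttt
Cyp2d22 A_44_P372061: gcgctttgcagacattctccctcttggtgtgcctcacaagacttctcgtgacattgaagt
Cyp2e1 A_44_P409232: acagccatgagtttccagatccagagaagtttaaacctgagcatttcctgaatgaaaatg

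Probes of close relatives can capture each other's RNA. The closest pair among the members was Cyp2a1 (chr1:82093167-82093226, plus strand) and Cyp2a2 (chr1:82139063-82139122, plus strand), which match at 51 of 60 bases. Capitals mark the bases at which they differ. A further 5 pairs of members matched at 30 or more bases and at least 70% of their overlap: Cyp3a18 with Cyp3a62, Cyp2b13 with Cyp2b15, Cyp2a1 with Cyp2a3a, Cyp2b2 with Cyp2b3, and Cyp2b2 with Cyp2b13. Values within these subfamilies are uncertain for that reason.
Cyp2a1 A_42_P654578: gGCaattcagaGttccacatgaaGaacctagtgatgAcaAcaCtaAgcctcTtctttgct
Cyp2a2 A_44_P356143: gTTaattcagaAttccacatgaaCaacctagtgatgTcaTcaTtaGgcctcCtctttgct

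The 250 bases before the Cyp1b1 start are shown because Cyp1b1 is a known target of the aryl hydrocarbon receptor and held the one member probe that passed the test in the planned comparisons. They come from RefSeq on build GRCr8, chr6:21094315-21094564, plus strand. Both strands were searched for the receptor's core motif, GCGTG or its complement CACGC, printed in capitals. Cyp1b1 held 2 matches, starting 81 and 20 bases before the gene's start. At least 1 match was present in 25.9% of 33469 RefSeq promoters of the same length and 2 or more in 8.12%. Of the 34 member genes with an entry, 6 held a match, which is a description of letters and not of binding.
Cyp1b1 promoter: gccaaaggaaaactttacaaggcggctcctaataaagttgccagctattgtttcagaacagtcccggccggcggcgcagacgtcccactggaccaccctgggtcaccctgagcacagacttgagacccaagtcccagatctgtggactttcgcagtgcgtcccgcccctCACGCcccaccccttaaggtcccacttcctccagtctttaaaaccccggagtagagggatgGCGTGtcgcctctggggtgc

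Few of these genes were measured reliably in the heart cultures. Well above background is the scanner software's flag for a spot whose signal clears its local background by a set margin, and here a probe had the flag only if all its spots did. On all 20 arrays, 12 of the 59 member probes (20.3%) carried it, against 57.2% of all probes on the array. No array flagged 8 member probes (13.6%, against 5.31% of all probes), and the other 39 were flagged on 1 to 19 arrays. The probes flagged on all 20 arrays belong to 11 genes: Cyp1b1, Cyp2b2 (by 2 probes), Cyp2d13, Cyp2d22, Cyp2j4, Cyp2j9, Cyp2s1, Cyp2w1, Cyp4b1, Cyp4f5 and Cyp4f6. By accession, Cyp2d13 is now Cyp2d3 and Cyp2j9 is Cyp2j3. The files' names are kept below, since 22 of the 46 member probes with a RefSeq match carry a name that has since changed.

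By family, family 1 had 1 of 5 probes flagged on all 20 arrays, family 2 had 8 of 40, family 3 had 0 of 5, and family 4 had 3 of 9. The 12 probes of subfamily 2C, which holds the diclofenac-oxidising form of human liver, included none flagged on all 20 arrays and 3 flagged on no array. The 8 probes flagged on no array were those of Cyp2a1, Cyp2a2, Cyp2c13, Cyp4a22 and Cyp4f4, 2 of the 4 probes of Cyp2c7, and 1 of the 2 probes of Cyp2j9. Between 25 and 31 member probes were flagged per array in the 1/25 group at 24 h, 26 to 27 in the 1/5 group and 32 to 35 in the group at 1. At 6 h the counts were 22 to 33 in the 1/25 group, 30 to 37 in the 1/5 group and 32 to 37 in the group at 1. The untreated arrays flagged 28 and 30. Array 3 of the 1/5 group at 24 h flagged Cyp2c55 where no other array did, and Cyp3a3, Cyp4x1 and Cyp2g1, which few other arrays flagged.

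**Figure D1:**
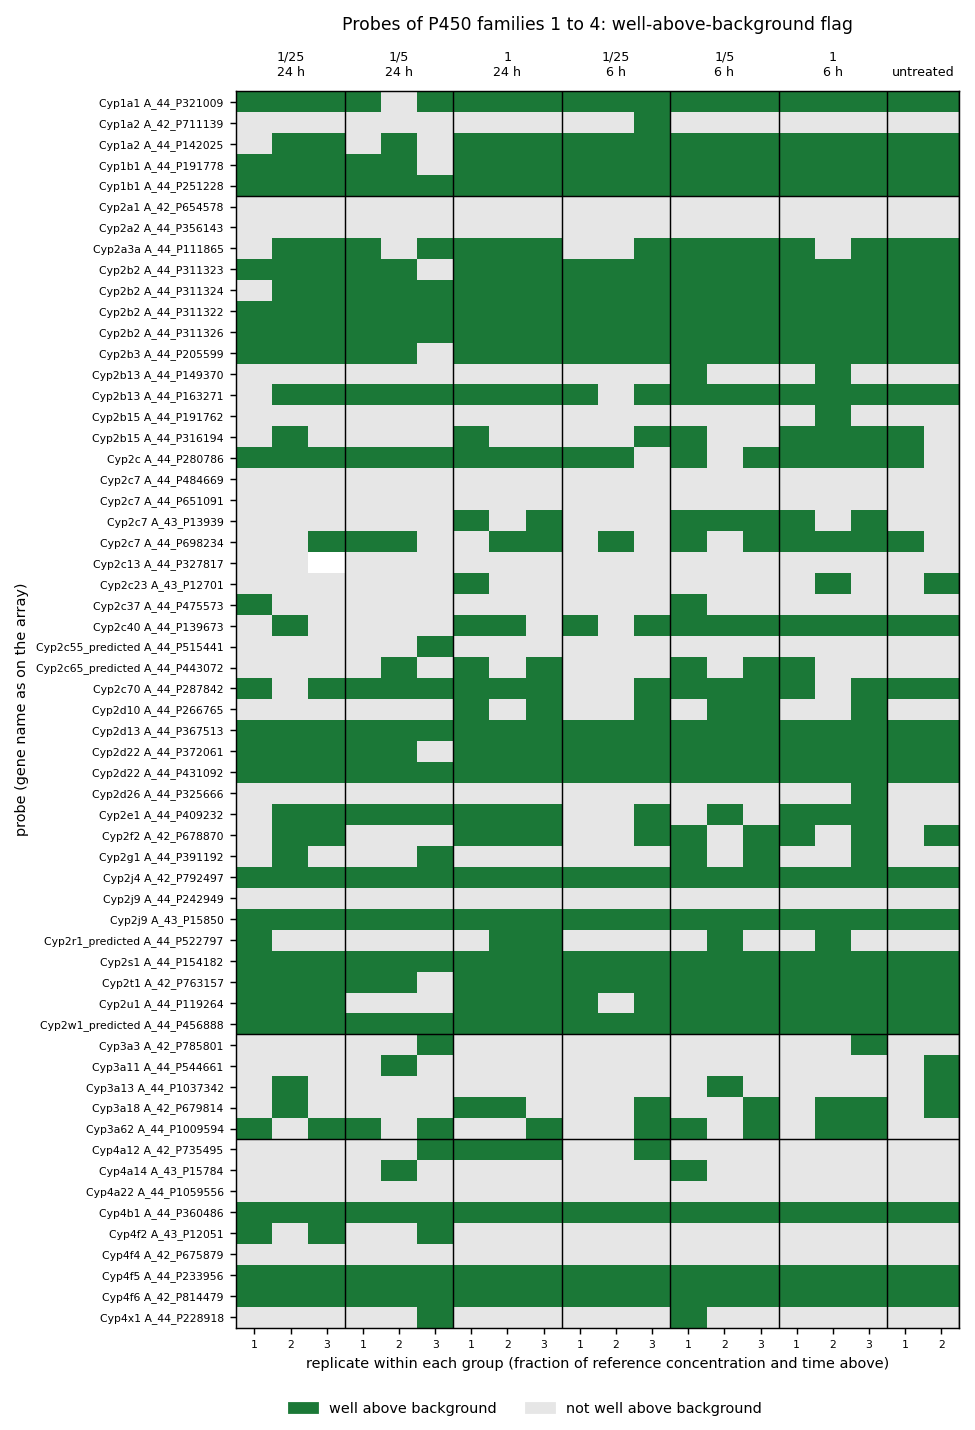
Detection map: each row is one of the 59 member probes with its gene name on the array, each column one of the 20 arrays, grouped by fraction of the reference concentration and time. Green cells are well above background, grey cells are not, and the white cell is a spot left out as an outlier; 12 rows are green throughout and 8 are grey or white throughout.

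A probe entered the tests if every array of at least 1 group flagged it, which kept 32 member probes of 26 gene names and 35056 probes in all. The 32 include probes that entered through 1 group alone. These were Cyp4a12 and Cyp2f2 through the group at 1 at 24 h, and Cyp2c7 A_43_P13939 through the 1/5 group at 6 h. Cyp2c7 A_44_P698234 and Cyp2b15 A_44_P316194 entered through the group at 1 at 6 h. The member counts below include them, and for them a comparison with the admitting group is a description. Signals are given as log2 of the processed signal relative to the array's 75th percentile, and changes as log2 differences of group means from limma, with the standard error and the p-value adjusted by Benjamini-Hochberg over all tested probes. Levels of different probes are not comparable as amounts of RNA, and where 2 probes of a gene are subtracted below, only how that difference varied between arrays is described.

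The arrays were uneven. At 24 h they flagged 64.1% to 85.9% of spots, against 75.1% to 88.2% at 6 h and 82.5% to 84.7% in untreated cultures, with the lowest share on array 3 of the 1/5 group at 24 h. For 2573 genes with probes at 2 positions, the probe nearer the 5′ end was set against the one nearer the 3′ end, which is sensitive to RNA length. The array's median of this difference was -2.09 to -1.27 at 24 h, -1.87 to -1.07 at 6 h and -1.31 to -1.25 in untreated cultures. All 12 cardiomyocyte marker genes were flagged on all 20 arrays, as were 5 of 8 fibroblast, 3 of 5 leukocyte and 5 of 8 hepatocyte marker genes. Among the hepatocyte genes, albumin (Alb) was flagged on 6 arrays by probe A_44_P468107 and on 0 by A_44_P1017367 and A_44_P468103. The brightest hepatocyte probes were those of Fgb, Ttr and Ahsg. The summed signal of the hepatocyte probes was 1.01 to 1.78 times the 75th percentile at 24 h, 1.48 to 1.97 at 6 h and 1.56 to 1.76 in untreated cultures. Endothelial probes summed to 2.57 to 10.5 at 24 h, 1.79 to 3.86 at 6 h and 2.43 to 2.57 in untreated cultures, most of it from Kdr, without which the sums were 0.145 to 0.565, 0.0757 to 0.301 and 0.193 to 0.257. Cardiomyocyte probes summed to 19.2 to 109 at 24 h, 23.2 to 29.2 at 6 h and 23.4 to 27.2 in untreated cultures, fibroblast probes to 13 to 108, 16.3 to 20.2 and 18 to 19.9, and smooth muscle probes to 0.578 to 4.1, 3.07 to 4.6 and 3.62 to 4.19. The values 109, 108, 10.5 and 0.578 are all from array 3 of the 1/5 group at 24 h, and the next highest sums at 24 h were 33 for cardiomyocyte and 26.3 for fibroblast probes. The part of these cells in the P450 results was not tested. In such bulk RNA, fewer cells of a type and less RNA per cell cannot be told apart. Time cannot be told apart from slide either, since no slide held the same concentration at both times. With slide as a fixed block, which was possible for 4 of the comparisons, no member passed. None of these 4 set 24 h against 6 h, and no member passed in them without the block either. The block therefore could not test the changes between the times.

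Cyp1b1, which oxidises oestradiol and polycyclic hydrocarbons and is expressed mainly outside the liver, held the one member probe that passed the threshold in the planned comparisons. Its 5′-ward probe A_44_P191778 read -3.42, -3.19 and -3.48 in the 1/25 group at 24 h, -3.45, -3.04 and -4.59 in the 1/5 group, and -2.22, -2.98 and -2.22 in the group at 1. At 6 h it read -1.82, -2.14 and -1.55 in the 1/25 group, -0.92, -2.14 and -1.30 in the 1/5 group, and -1.93, -1.28 and -1.74 in the group at 1. The untreated arrays read -1.79 and -1.42. Every 24 h array therefore lay below every 6 h array. Of all 35056 probes, 0.265% were likewise lower on all 9 arrays at 24 h than on all 9 at 6 h, and 0.294% were higher.

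At 1/5 of the reference concentration the 5′-ward Cyp1b1 probe averaged -3.69 ± 0.80 at 24 h and -1.45 ± 0.62 at 6 h (SD, n = 3 each). It fell by 2.24 ± 0.41 on the log2 scale (95% interval -3.10 to -1.38, adjusted p = 0.0402, limma), a 4.72-fold difference. At 1/25 the change was -1.53 ± 0.41 (adjusted p = 0.319) and at 1 it was -0.83 ± 0.41 (adjusted p = 0.362), so neither passed. The changes at 1 and at 1/25 differed by 0.70 ± 0.58, which did not pass either (adjusted p = 1 in limma). Over the 7 groups together the same probe passed the F test (adjusted p = 0.0329). Against untreated cultures it read -2.09 ± 0.46 in the 1/5 group at 24 h (adjusted p = 0.0814). The call at 1/5 held in 10 of 32 alternative settings, with a change of -2.58 to -1.59. Leaving out any of 14 single arrays ended it. These were both untreated arrays, all 3 of the group at 1 and all 3 of the 1/5 group at 6 h, arrays 1 and 3 of the 1/25 group at 6 h, array 3 of the group at 1, arrays 1 and 3 of the 1/5 group and array 3 of the 1/25 group at 24 h. The adjusted p was 0.209 without array 1 of the 1/5 group at 6 h, 0.0702 without array 3 of the 1/5 group at 24 h, the one array on which the probe was not well above background, and 0.00649 without array 2 of that group.

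The second Cyp1b1 probe, A_44_P251228 at chr6:2546002-2546061, lies 2658 bases nearer the 3′ end, and no comparison of it passed. It read 1.84, 1.66 and 1.88 in the 1/25 group at 24 h, 1.96, 1.69 and 1.39 in the 1/5 group, and 1.14, 1.95 and 1.84 in the group at 1. The 6 h values were 1.89, 2.10 and 1.87 in the 1/25 group, 2.08, 1.89 and 1.92 in the 1/5 group, and 1.76, 1.82 and 1.79 in the group at 1, and the untreated arrays read 1.67 and 1.80. The groups overlapped, and the change at 1/5 was -0.28 ± 0.27 (95% interval -0.86 to 0.29, adjusted p = 0.462). Its spot was saturated on 5 arrays, none of them at 24 h, so the difference between the probes is not fully measured on those 5. The 5′-ward minus 3′-ward difference of Cyp1b1 was -5.98 to -3.36 at 24 h, -4.25 to -3.0 at 6 h, and -3.47 and -3.21 in untreated cultures. The median 5′-to-3′ difference of the arrays was also lower at 24 h. With that median as a covariate, chosen after the data were seen, the change at 1/5 was -1.79 with an adjusted p of 0.253, and without the 4 arrays of lowest detection it was -1.59 with an adjusted p of 0.282.

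**Figure D2:**
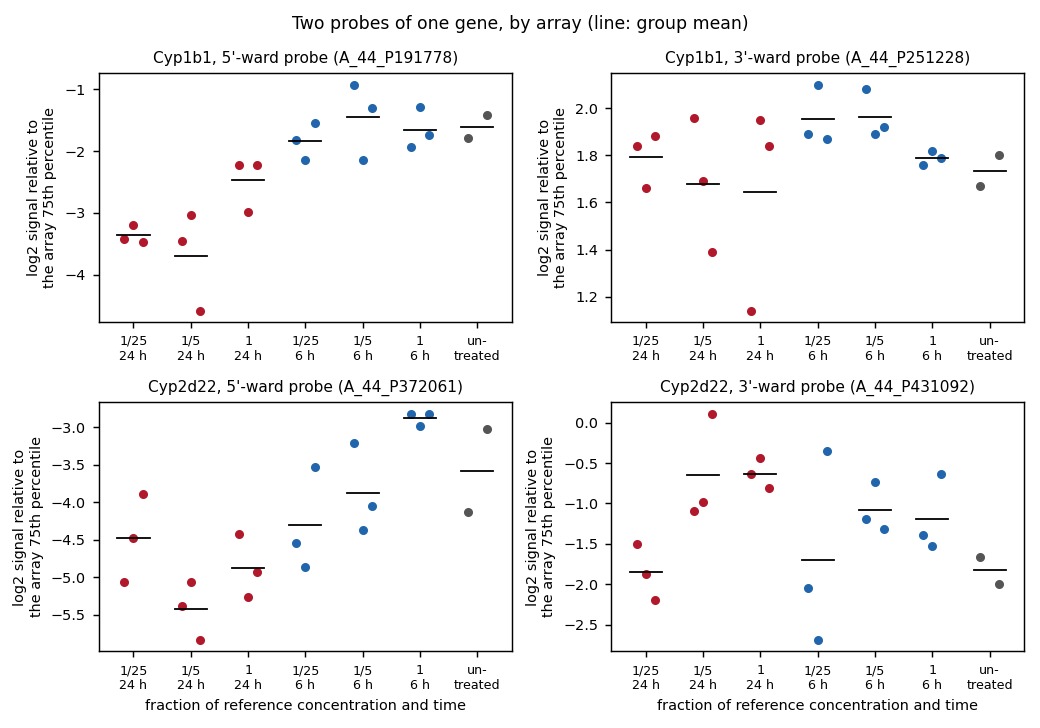
Signal of the 2 probes of Cyp1b1 (top) and of Cyp2d22 (bottom) on each array, as log2 relative to the array's 75th percentile, with the 5′-ward probe on the left; points are arrays, lines are group means, and the 3 groups at 24 h (red) stand left of the 3 at 6 h (blue) and the untreated cultures (grey). The 5′-ward Cyp1b1 probe lay between -4.59 and -2.22 at 24 h and between -2.14 and -0.92 at 6 h, while its 3′-ward probe overlapped between the times.

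**Figure D3:**
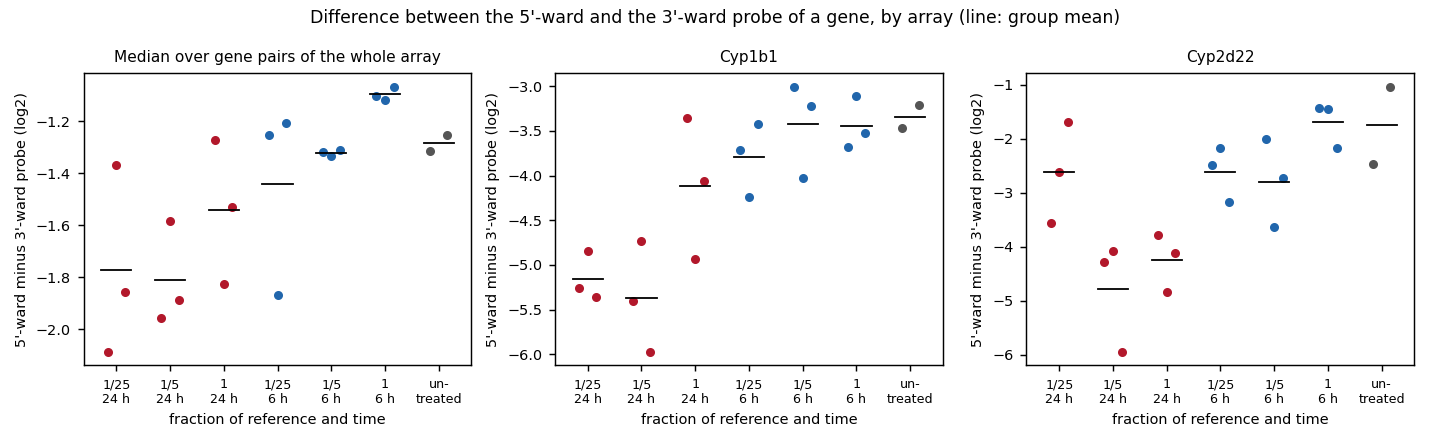
Difference between the 5′-ward and the 3′-ward probe on each array, in log2 units, as the median over 2573 genes (left), for Cyp1b1 (middle) and for Cyp2d22 (right); points are arrays and lines group means. The array medians reached -2.09 at 24 h, against a lowest value of -1.87 at 6 h, on array 2 of the 1/25 group, and of -1.31 in untreated cultures.

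Cyp1a1, the classic target of the aryl hydrocarbon receptor, was flagged on 19 of 20 arrays and was widely scattered at 24 h. Its probe read -3.83, -5.46 and -1.96 in the 1/25 group at 24 h, -3.23, -6.55 and 0.22 in the 1/5 group, and -4.71, -2.60 and -4.14 in the group at 1. At 6 h the values stayed between -2.02 and -0.70, and the untreated arrays read -0.86 and -1.28. Apart from array 3 of the 1/5 group and array 3 of the 1/25 group, the 24 h arrays were below all 6 h arrays. The change between the times was -2.25 ± 1.17 at 1/25, -1.76 ± 1.17 at 1/5 and -2.0 ± 1.17 at 1, with adjusted p-values of 0.498, 0.289 and 0.445. Cyp1a2, a liver form, was flagged on 17 arrays by one probe and on 1 array by the other. The better detected probe read -6.73 to -3.82 at 24 h, -5.18 to -3.37 at 6 h, and -3.74 and -3.75 in untreated cultures, with no change past the threshold.

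Within subfamily 2D, Cyp2d22 also had a 5′-ward and a 3′-ward probe. The 5′-ward probe A_44_P372061 read -5.06, -4.48 and -3.89 in the 1/25 group at 24 h, -5.38, -5.06 and -5.84 in the 1/5 group, and -4.42, -5.27 and -4.93 in the group at 1. After 6 h the readings were -4.54, -4.86 and -3.53 in the 1/25 group, -3.21, -4.37 and -4.05 in the 1/5 group, and -2.83, -2.99 and -2.82 in the group at 1, against -4.13 and -3.03 in untreated cultures. The times did not overlap at 1/5 or at 1 and overlapped at 1/25. Such non-overlap was common: of all tested probes, 15.2% did not overlap between the times at 1/25, 28.5% at 1/5 and 38.9% at 1. The change was -1.99 ± 0.44 at 1 (adjusted p = 0.0643), -1.55 ± 0.44 at 1/5 (adjusted p = 0.101) and -0.17 at 1/25, none of which passed in limma. At 6 h the probe differed by 1.43 ± 0.44 between the group at 1 and the 1/25 group (adjusted p = 0.714). The 5′-ward minus 3′-ward difference of Cyp2d22 was -5.95 to -1.70 at 24 h and -3.64 to -1.44 at 6 h. Cyp2b2 and Cyp2c7 also had such a pair. For Cyp2b2 the difference was -1.82 to 1.18 at 24 h and -0.99 to 0.59 at 6 h. For Cyp2c7 it was -2.03 to 2.65 and -2.57 to 2.66, so in both the times overlapped widely.

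The 3′-ward Cyp2d22 probe A_44_P431092 (chr7:120775863-120775922), 1585 bases away, read -1.50, -1.87 and -2.19 in the 1/25 group at 24 h, -1.09, -0.98 and 0.11 in the 1/5 group, and -0.64, -0.44 and -0.81 in the group at 1. In the 6 h cultures it read -2.05, -2.69 and -0.35 in the 1/25 group, -1.19, -0.73 and -1.32 in the 1/5 group, and -1.39, -1.53 and -0.64 in the group at 1, against -1.66 and -1.99 in untreated cultures. No comparison of it passed, and its largest values by moderated t were 1.23 ± 0.49 for the group at 1 against 1/25 at 24 h and 1.20 ± 0.49 for 1/5 against 1/25. Cyp2d13 read -5.03, -3.90 and -4.78 in the 1/25 group at 24 h, -5.39, -3.73 and -3.50 in the 1/5 group, and -3.51, -4.79 and -4.09 in the group at 1. Its 6 h values were -3.69, -5.12 and -3.81 in the 1/25 group, -4.36, -2.91 and -3.82 in the 1/5 group, and -3.75, -3.08 and -2.73 in the group at 1, against -4.11 and -3.39 in untreated cultures. The times overlapped at each concentration, and at 1 the change was -0.95 ± 0.56 (adjusted p = 0.455). Cyp2d10 and Cyp2d26, now Cyp2d5 and Cyp2d2, were flagged on 6 arrays and on 1 array.

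Both epoxygenases of subfamily 2J were detected throughout and read higher at 24 h on most arrays. Cyp2j9 (now Cyp2j3, chr5:116749568-116749627), first described as an arachidonate epoxygenase of rat heart, read -3.36, -3.97 and -2.42 in the 1/25 group at 24 h, -3.67, -2.85 and -2.53 in the 1/5 group, and -3.27, -3.01 and -3.54 in the group at 1. At 6 h it read -4.56, -3.50 and -4.87 in the 1/25 group, -3.70, -4.85 and -4.67 in the 1/5 group, and -4.07, -4.96 and -4.02 in the group at 1, against -4.13 and -4.94 in untreated cultures. The times did not overlap at 1/5 or at 1, like 28.5% and 38.9% of all probes. The change was 1.06 ± 0.49 at 1/25, 1.39 ± 0.49 at 1/5 and 1.08 ± 0.49 at 1, with adjusted p-values of 0.475, 0.11 and 0.323. Its second probe, at another position, was flagged on no array.

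Cyp2j4 (chr5:116707995-116708054) read -3.40, -3.69 and -3.49 in the 1/25 group at 24 h, -4.01, -4.30 and -3.22 in the 1/5 group, and -4.01, -3.45 and -3.55 in the group at 1. The 6 h values were -4.27, -4.73 and -3.93 in the 1/25 group, -4.30, -4.92 and -4.18 in the 1/5 group, and -4.12, -3.94 and -4.13 in the group at 1, against -4.48 and -4.40 in untreated cultures. Only at 1/25 did the times not overlap, like 15.2% of all probes, with a change of 0.78 ± 0.33 (adjusted p = 0.456). Against untreated cultures the estimate was 0.92 ± 0.37 in the 1/25 group at 24 h (adjusted p = 0.328 in limma).

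Subfamily 2C was mostly dim. The probe named Cyp2c (now Cyp2c11, the male-specific form of rat liver and an arachidonate epoxygenase) was flagged on all 9 arrays at 24 h, on 7 of 9 at 6 h and on 1 of 2 untreated arrays. It read -2.29, -4.78 and -2.79 in the 1/25 group at 24 h, -3.97, -3.59 and -0.95 in the 1/5 group, and -4.22, -3.46 and -4.26 in the group at 1. After 6 h the readings were -3.66, -4.82 and -6.86 in the 1/25 group, -5.65, -5.82 and -5.71 in the 1/5 group, and -3.85, -4.43 and -4.09 in the group at 1, against -4.27 and -6.06 in untreated cultures. The times did not overlap at 1/5, like 28.5% of all probes, and the change there was 2.89 ± 0.83 (adjusted p = 0.102). The highest value of all came from array 3 of the 1/5 group, the array of lowest detection.

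Cyp2c7 was flagged by its probe A_43_P13939 on 7 arrays. That probe read -5.68, -7.58 and -6.98 in the 1/25 group at 24 h, -6.02, -8.24 and -6.55 in the 1/5 group, and -5.79, -6.76 and -4.19 in the group at 1. In the 6 h cultures it read -7.03, -7.97 and -6.04 in the 1/25 group, -5.52, -4.42 and -4.69 in the 1/5 group, and -3.78, -6.38 and -2.56 in the group at 1, against -6.50 and -7.57 in untreated cultures. Where every array of a group is at background, a fold is given against the probe's own signal or the lowest signal flagged on the array, whichever is higher. Such a fold is a lower bound, written as at least, unless the probe's own signal was the higher on every array of that group. By that measure the 1/5 group at 6 h, flagged on 3 of 3 arrays, was at least 2.22-fold higher than untreated cultures and the group at 1, flagged on 2 of 3, at least 3.44-fold higher. The probe entered the tests through the 1/5 group at 6 h alone, so its height there is a description and no test of it is given. Cyp2c40 and Cyp2c70, now Cyp2c12 and Cyp2c22, were flagged on 13 and 16 arrays with no change past the threshold, and Cyp2c23, an epoxygenase of rat kidney, on 3.

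In subfamily 2B, which phenobarbital induces in liver, the 4 probes named Cyp2b2 differed among themselves. Probe A_44_P311324 (chr1:81432830-81432889) read -5.94, -3.69 and -5.56 in the 1/25 group at 24 h, -4.70, -4.60 and -3.57 in the 1/5 group, and -3.77, -4.43 and -3.79 in the group at 1. Its 6 h values were -3.20, -5.07 and -3.68 in the 1/25 group, -3.41, -3.86 and -3.72 in the 1/5 group, and -2.65, -3.25 and -2.16 in the group at 1, against -3.39 and -2.79 in untreated cultures. Against untreated cultures its change was -1.97 ± 0.63 in the 1/25 group at 24 h (adjusted p = 0.309 in limma). Probe A_44_P311322 read -4.46, -1.44 and -4.17 in the 1/25 group at 24 h, -4.23, -1.73 and -3.93 in the 1/5 group, and -1.84, -3.33 and -2.23 in the group at 1. At 6 h it read -1.97, -2.54 and -1.77 in the 1/25 group, -2.52, -2.55 and -2.07 in the 1/5 group, and -2.20, -2.33 and -1.79 in the group at 1, against -2.06 and -2.16 in untreated cultures. At 24 h this probe was scattered within every group, and the change at 1/25 was -1.26 ± 0.70 (adjusted p = 0.506). Probe A_44_P311326 read -4.46, -2.44 and -2.87 in the 1/25 group at 24 h, -3.26, -2.91 and -2.11 in the 1/5 group, and -1.65, -3.50 and -2.86 in the group at 1. The 6 h values were -1.43, -3.13 and -2.01 in the 1/25 group, -2.21, -2.86 and -2.52 in the 1/5 group, and -1.21, -1.48 and -0.98 in the group at 1, against -2.01 and -2.47 in untreated cultures. At 6 h its group at 1 differed from the 1/5 group by 1.31 ± 0.56 (adjusted p = 1). The fourth probe, A_44_P311323, was flagged on 19 arrays and read -6.46 to -3.01 at 24 h, -5.33 to -3.34 at 6 h, and -3.69 and -4.75 in untreated cultures. With the concentrations pooled the times overlapped for each of the 4 probes, and at 1 alone they did not overlap for A_44_P311324 and A_44_P311326, like 38.9% of all probes.

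Cyp2b3 (chr1:81263499-81263558) read -3.30, -2.59 and -4.38 in the 1/25 group at 24 h, -3.92, -3.19 and -5.91 in the 1/5 group, and -2.71, -3.08 and -1.89 in the group at 1. After 6 h the readings were -2.78, -1.90 and -2.41 in the 1/25 group, -2.62, -3.76 and -2.69 in the 1/5 group, and -1.29, -2.0 and -1.51 in the group at 1, against -2.18 and -3.71 in untreated cultures. Its difference between 1 and 1/5 at 24 h was 1.78 ± 0.64 (adjusted p = 0.144). Cyp2b13, now Cyp2b21, had 1 probe flagged on 18 arrays and 1 flagged on 2, and the first read -1.02 ± 0.48 against untreated cultures in the group at 1 at 24 h (adjusted p = 0.994).

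Cyp2e1, which oxidises ethanol and other small molecules, was flagged on 8 of 9 arrays at 24 h, on 5 of 9 at 6 h and on neither untreated array. All of its 10 spots had to carry the flag, a stricter rule than for probes with 1 spot. Array 2 of the group at 1 at 6 h carried it at -5.41, close to the untreated signals. By the less strict positive-and-significant flag the probe was detected on all 20 arrays. Its probe read -5.53, -4.55 and -4.82 in the 1/25 group at 24 h, -4.64, -4.61 and -3.82 in the 1/5 group, and -3.74, -4.69 and -4.95 in the group at 1. In the 6 h cultures it read -5.98, -6.45 and -4.41 in the 1/25 group, -5.54, -5.14 and -5.38 in the 1/5 group, and -2.60, -5.41 and -4.45 in the group at 1, against -5.48 and -5.44 in untreated cultures. Relative to untreated cultures it measured 1.40-fold higher in the 1/25 group at 24 h, where 2 of 3 arrays were flagged. It measured 2.15-fold higher in the 1/5 group and 1.99-fold higher in the group at 1. At 6 h the group at 1 measured 2.47-fold higher. On the log2 scale the 95% intervals at 24 h were -0.96 to 1.93 at 1/25, -0.34 to 2.55 at 1/5 and -0.45 to 2.44 at 1. At 6 h the interval at 1 was -0.14 to 2.75. The probe's own untreated signals were above the lowest flagged ones, so these are measured folds and not lower bounds. It entered the tests through the 1/5 group and the group at 1 at 24 h and the group at 1 at 6 h, so the values of those 3 groups are a description, and the 1/25 group at 24 h did not pass (adjusted p = 0.691).

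The remaining family 2 members detected on all arrays were Cyp2s1 and Cyp2w1. Cyp2s1, an extrahepatic form of epithelia, read -2.83, -3.24 and -2.92 in the 1/25 group at 24 h, -2.59, -3.23 and -2.41 in the 1/5 group, and -2.65, -2.92 and -2.43 in the group at 1. Its 6 h values were -3.40, -3.66 and -2.67 in the 1/25 group, -3.47, -3.50 and -3.04 in the 1/5 group, and -3.14, -2.94 and -3.09 in the group at 1, against -2.73 and -2.69 in untreated cultures. The times did not overlap at 1, like 38.9% of all probes, with a change of 0.39 ± 0.31 (adjusted p = 0.602). Cyp2w1, a form of fetal gut and tumours, read -3.19 to -1.42 at 24 h, -2.35 to -0.87 at 6 h, and -1.59 and -1.42 in untreated cultures. Neither passed in any comparison. Cyp2u1, a fatty acid hydroxylase, was flagged on 16 arrays but on 0 of 3 in the 1/5 group at 24 h, which was at least 1.67-fold lower than untreated cultures (adjusted p = 0.138). Cyp2a3a, now Cyp2a3, was flagged on 15 arrays and read -2.20 ± 0.68 against untreated cultures in the 1/25 group at 6 h (adjusted p = 1).

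No probe of family 3 was tested. Its 5 genes, Cyp3a3, Cyp3a11, Cyp3a13, Cyp3a18 and Cyp3a62, were flagged on 2, 2, 3, 8 and 10 arrays, and no group had all its arrays flagged. By accession Cyp3a3, Cyp3a11 and Cyp3a13 are now Cyp3a23-3a1, Cyp3a2 and Cyp3a9. Cyp3a62 was flagged on 5 of 9 arrays at 24 h, on 5 of 9 at 6 h and on no untreated array.

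Family 4 omega-hydroxylases were detected through Cyp4f5, Cyp4f6 and Cyp4b1. Cyp4f5 (chr7:13133749-13133808) read 2.54, 1.86 and 2.27 in the 1/25 group at 24 h, 2.20, 1.67 and 1.16 in the 1/5 group, and 1.46, 2.21 and 1.78 in the group at 1. At 6 h it read 1.44, 2.02 and 1.24 in the 1/25 group, 1.12, 0.90 and 1.38 in the 1/5 group, and 0.99, 1.17 and 1.08 in the group at 1, against 1.46 and 1.00 in untreated cultures. Its spot was saturated on 1 array. Only at 1 did the times not overlap, like 38.9% of all probes, with a change of 0.73 ± 0.34 (adjusted p = 0.33), and in the 1/25 group at 24 h it read 0.99 ± 0.38 against untreated cultures (adjusted p = 0.322).

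Cyp4f6 (chr7:13609104-13609163) read -0.61, -0.17 and -1.32 in the 1/25 group at 24 h, -1.56, -0.84 and -0.51 in the 1/5 group, and -1.29, -1.69 and -1.02 in the group at 1. The 6 h values were 0.14, -0.88 and -0.66 in the 1/25 group, -1.01, -1.53 and -1.05 in the 1/5 group, and -0.35, -0.10 and 0.00 in the group at 1, against -0.66 and -0.76 in untreated cultures. The times did not overlap at 1, like 38.9% of all probes, and the change there was -1.18 ± 0.37 (adjusted p = 0.18). At 6 h the group at 1 minus the 1/5 group was 1.04 ± 0.37 (adjusted p = 1). Cyp4b1, which oxidises fatty acids and some protoxins in lung, read -1.90, -1.84 and -2.47 in the 1/25 group at 24 h, -1.74, -1.57 and -0.85 in the 1/5 group, and -2.19, -2.17 and -2.04 in the group at 1. After 6 h the readings were -2.20, -2.50 and -1.72 in the 1/25 group, -1.65, -1.78 and -1.69 in the 1/5 group, and -1.83, -1.76 and -2.03 in the group at 1, against -1.54 and -1.51 in untreated cultures. Its highest value came from array 3 of the 1/5 group at 24 h. Its difference between 1 and 1/5 at 24 h was -0.75 ± 0.30 (adjusted p = 0.186).

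Cyp4a12 (now Cyp4a8, a fatty acid omega-hydroxylase) was flagged on 3 of 3 arrays of the group at 1 at 24 h, on 1 of 3 in the 1/5 group at 24 h, on 1 of 3 in the 1/25 group at 6 h and on no other array. The group at 1 read -5.04, -4.60 and -4.88 at 24 h, which was at least 2.57-fold higher than the group at 1 at 6 h and at least 2.27-fold higher than untreated cultures. The probe entered the tests through that group alone, so these values are a description and no test of them is given. Cyp4a14 and Cyp4a22, now Cyp4a3 and Cyp4a1, were flagged on 2 arrays and on none. Cyp4f2, now Cyp4f1, was flagged on 3 arrays, Cyp4f4 on none, and Cyp4x1, a form of brain, on 2.

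No member probe passed the threshold between diclofenac-treated and untreated cultures at any concentration or time. The count was 0 of 32 in each of 6 comparisons in limma, which share the 2 untreated arrays. Over all tested probes the share called was 0.00285% in the 1/25 group at 24 h, 0.148% in the 1/5 group, and 0% in the group at 1. At 6 h it was 0% in the 1/25 and 1/5 groups and 0.00856% in the group at 1. At an unadjusted p under 0.05, 7, 6 and 5 members (21.9%, 18.8% and 15.6% of the 32) passed at 24 h in the 1/25, 1/5 and 1 groups, against 14.3%, 30.0% and 4.76% of all tested probes. At 6 h 1 member did so at each concentration, against 1.19%, 1.10% and 1.57% of all probes at 1/25, 1/5 and 1. At 1/5 and at 1 that member was Cyp2c7 A_43_P13939, which entered the tests only through the 1/5 group at 6 h. The 5 members in the group at 1 at 24 h include Cyp4a12, which entered only through that group. For these 2 probes the counts are a description. The members' median change was -0.63, -0.48 and -0.30 at 24 h at 1/25, 1/5 and 1, beside -0.20, -0.19 and -0.12 over all tested probes. With scaling to the array median in place of the 75th percentile, the members' medians were -0.14, 0.04 and -0.09 and those of all probes 0.30, 0.33 and 0.10, so the sign turned for the members at 1/5 and for all probes at each concentration. The standard errors of single members, 0.63 at the median, set how small a change could be seen.

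The ends of the ranking against untreated cultures were as follows. The lowest by moderated t were the 5′-ward Cyp1b1 probe at -1.76 ± 0.46 and Cyp2b2 A_44_P311324 in the 1/25 group at 24 h, Cyp1b1 and Cyp2d22 at -2.09 ± 0.46 and -1.85 ± 0.49 in the 1/5 group, and Cyp2d22 at -1.29 ± 0.49 and Cyp2b13 in the group at 1. The highest were Cyp4f5 and Cyp2j4 in the 1/25 group, Cyp2j9 at 1.52 ± 0.54 and Cyp2c at 2.33 ± 0.93 in the 1/5 group, and Cyp4a12 and Cyp2j9 at 1.26 ± 0.54 in the group at 1. At 6 h Cyp2a3a was among the lowest in all 3 groups, at -2.20 ± 0.68, -1.13 ± 0.68 and -1.39 ± 0.68 at 1/25, 1/5 and 1, with Cyp4b1 at -0.61 ± 0.34, Cyp2s1 at -0.62 ± 0.35 and Cyp2c70 at -1.20 ± 0.86. The highest at 6 h were Cyp4f5 at 0.34 ± 0.38 and Cyp2b3 at 0.58 ± 0.71 in the 1/25 group, Cyp2c7 and the 3′-ward Cyp2d22 probe at 0.74 ± 0.55 in the 1/5 group, and Cyp2c7 and Cyp2e1 in the group at 1.

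Between 24 h and 6 h, 1 member probe of 32 passed at 1/5, the 5′-ward Cyp1b1 probe, and none at 1/25 or at 1. Over all tested probes the share called was 0% at 1/25, 0.126% at 1/5 and 0.242% at 1, and at 1/5 0.0770% fell and 0.0485% rose. At an unadjusted p under 0.05 the members numbered 4, 6 and 8 at 1/25, 1/5 and 1, beside 10.4%, 32.8% and 14.6% of all probes. The 6 at 1/5 include Cyp2c7 A_43_P13939, and the 8 at 1 include Cyp4a12 and Cyp2c7 A_44_P698234. Each entered the tests only through 1 of the groups compared, so for them the counts are a description. The members' median change was -0.20, -0.30 and -0.36, against -0.06, -0.15 and -0.12 over all probes. Of the 4 tested family 1 probes, none had a positive change at any concentration. Of the 24 family 2 probes, 9, 10 and 9 did, and of the 4 family 4 probes, 2, 4 and 2. Over all tested probes 47.3%, 44.8% and 38.7% had a positive change at 1/25, 1/5 and 1. The direction depends on the scaling: with scaling to the array median, the median change of all probes was 0.29, 0.32 and 0.24. Next to those already given, the lowest value at 1/25 was that of Cyp2w1, -0.95 ± 0.49, and the highest were Cyp2c, 1.83 ± 0.83, and Cyp2j4.

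**Figure D4:**
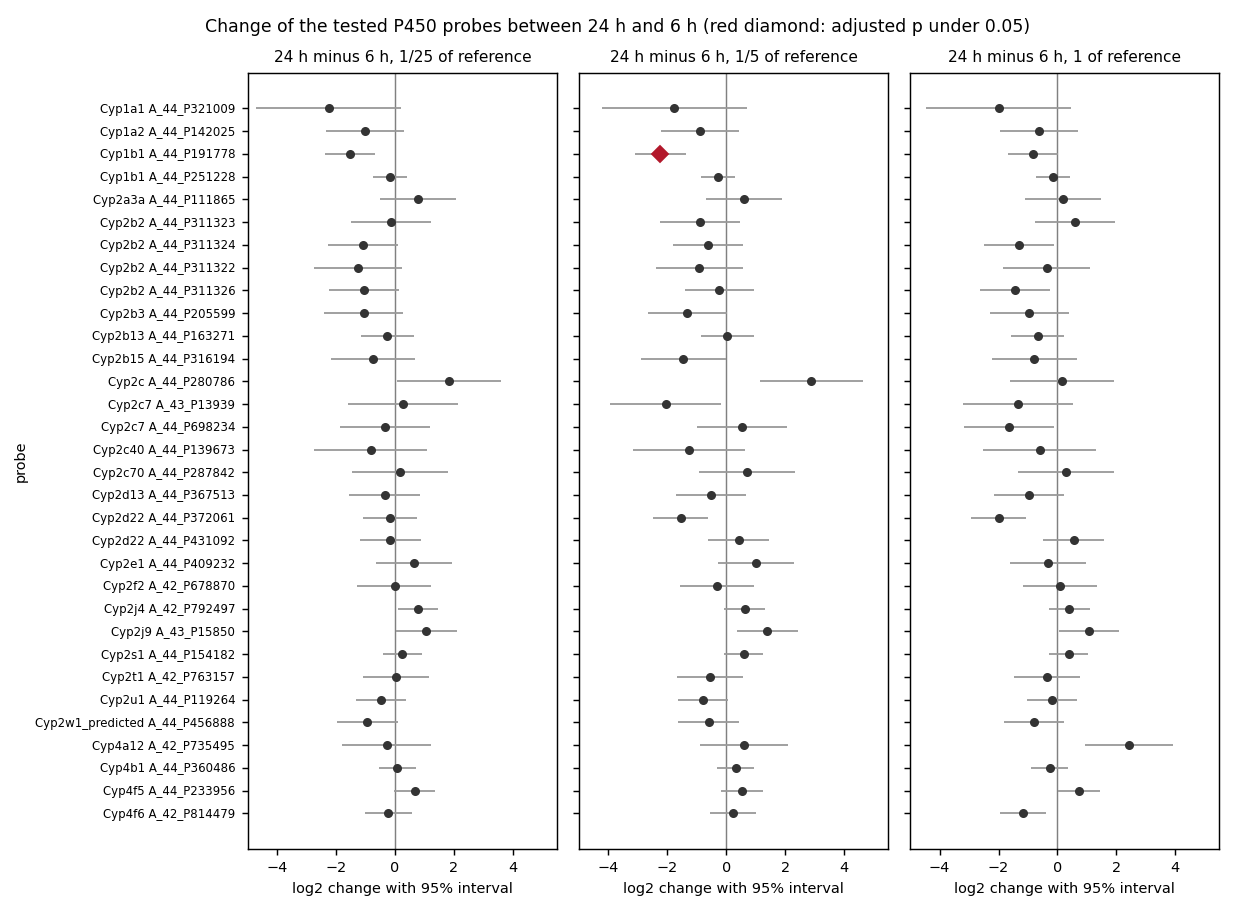
Log2 change between 24 h and 6 h of the 32 tested member probes at 1/25, 1/5 and 1 of the reference concentration; points are estimates, lines 95% intervals, and the red diamond marks the one adjusted p under 0.05. The marked probe, Cyp1b1 A_44_P191778 at 1/5, stands at -2.24, and 14 of the 32 estimates at 1/5 lie above 0, beside 44.8% of all tested probes.

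Between concentrations no member passed in any of the 6 comparisons, 0 of 32 each in limma. The share of all probes called was 0% for 1 against 1/5 at 24 h, and 0.00285% each for 1/5 and for 1 against 1/25. At 6 h it was 0.00571% for 1 against 1/5, 0% for 1/5 against 1/25 and 0.0171% for 1 against 1/25. At an unadjusted p under 0.05, 3 members passed in each comparison at 24 h, against 20.8% of all probes for 1 and 1/5, 6.52% for 1/5 and 1/25, and 5.01% for 1 and 1/25. At 6 h 4, 1 and 4 members did so in the same order, against 2.94%, 2.84% and 5.18% of all probes. The 1 member for 1/5 against 1/25 was Cyp2c7 A_43_P13939, which only the 1/5 group at 6 h admitted to the tests. That probe was also counted for 1 against 1/25 at 6 h. Cyp4a12 was counted for 1 against 1/25 at 24 h. For both probes the counts are a description. Further values at the ends of the ranking at 24 h were Cyp1b1 at 1.22 ± 0.41 and Cyp2c7 A_44_P698234 at -1.49 ± 0.72 for 1 against 1/5, and Cyp4b1 at 0.69 ± 0.30, Cyp2d22 at -0.95 ± 0.44 and Cyp2t1 at -0.91 ± 0.53 for 1/5 against 1/25. For 1 against 1/25 they were Cyp4f6 at -0.63 ± 0.37, Cyp4f5 at -0.41 ± 0.34 and Cyp4a12, which was at least 2.40-fold higher at 1, the group that admitted it to the tests. At 6 h they were Cyp4f6 at -0.73 ± 0.37, Cyp4f5 at -0.43 ± 0.34 and Cyp2a3a at 1.07 ± 0.61 for 1/5 against 1/25, Cyp4f5 at -0.48 ± 0.34 for 1 against 1/25, and the 3′-ward Cyp1b1 probe at -0.18 ± 0.27 for 1 against 1/5. Cyp2c7 A_43_P13939 was at least 2.08-fold higher at 1/5 and at least 3.23-fold higher at 1 than at 1/25, with the 1/5 group the one that admitted it. Cyp4a12 was also among the lowest for 1 against 1/5 and against 1/25 at 6 h, where no array of the group at 1 flagged it, so no fold is given.

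Whether the change between the times differed between 1 and 1/25 was tested as an interaction. In limma 0 of 32 members and 0% of all probes passed. At an unadjusted p under 0.05, 2 members, Cyp2d22 and Cyp4a12, and 2.57% of all probes passed. The lowest members were Cyp2d22 at -1.82 ± 0.62 and Cyp4f6 at -0.95 ± 0.53. The highest were Cyp1b1 and Cyp4a12, whose value rests on 0 of 3 flagged arrays in the group at 1 at 6 h and on the group that admitted it to the tests. For any difference among the 7 groups, 1 of 32 members passed the F test, against 0.819% of all probes, and 9 members and 22.0% of all probes had an unadjusted p under 0.05. The 9 include Cyp2c7 A_43_P13939 and Cyp4a12. Each was admitted to the tests by 1 of those groups alone, so for both the count is a description.

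Averaging the change between 24 h and 6 h over the 3 concentrations, a contrast chosen after the data were seen, drew on all 18 treated arrays. Of the 32 members 9 passed, 4 higher and 5 lower, against 22.7% of all tested probes, 7.33% higher and 15.4% lower, so the members' share was close to the background. At an unadjusted p under 0.05, 15 members and 41.9% of all probes passed. The 15 include Cyp4a12 and Cyp2b15 A_44_P316194. Each was admitted to the tests by 1 of the averaged groups alone, so for both the count is a description. Cyp1b1 (5′-ward probe) had a change of -1.53 ± 0.23 (adjusted p = 0.00171) and Cyp2d22 (5′-ward probe) one of -1.24 ± 0.25 (adjusted p = 0.00742). Cyp1a1, at -2.0 ± 0.67, Cyp2b3, at -1.11 ± 0.37, and Cyp2b2 A_44_P311324, at -1.0 ± 0.32, were also lower (adjusted p = 0.0428, 0.0405 and 0.0378). Cyp2j9 was higher by 1.18 ± 0.28, Cyp2c by 1.62 ± 0.48, Cyp4f5 by 0.64 ± 0.19 and Cyp2j4 by 0.60 ± 0.19 (adjusted p = 0.0133, 0.0283, 0.0297 and 0.0355). The call held in 31 of 32 alternatives for Cyp1b1 and for Cyp2d22, 33 of 34 for Cyp2j9, 24 of 33 for Cyp2c, 22 of 34 each for Cyp4f5 and Cyp2j4, 16 of 32 for Cyp2b2, 14 of 33 for Cyp2b3 and 10 of 33 for Cyp1a1. Each of the 9 kept its sign in every alternative that was fitted for it. The median of all probes was -0.15 here and 0.25 with median scaling, under which 8 members passed, 6 higher and 2 lower, and the split of all called probes was 8958 higher and 3296 lower in place of 2568 higher and 5390 lower. With the array's 5′-to-3′ median as a covariate no member passed and 63 of all probes did.

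**Figure D5:**
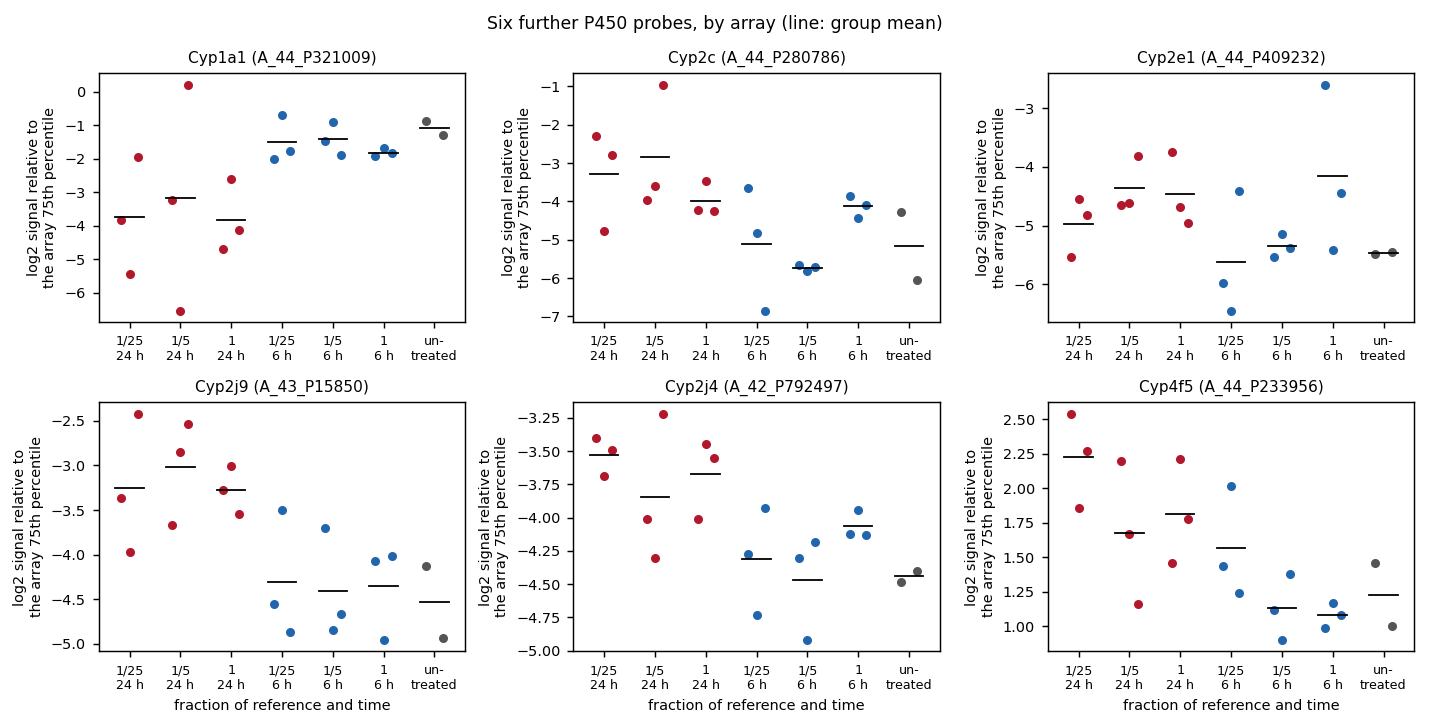
Signal of 6 further member probes on each array, as log2 relative to the array's 75th percentile; points are arrays, lines group means, red 24 h, blue 6 h and grey untreated. Cyp2j9, Cyp2j4, Cyp4f5 and Cyp2c averaged higher at 24 h than at 6 h over the concentrations, while Cyp1a1 spanned -6.55 to 0.22 in the 1/5 group at 24 h.

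The genes that serve the P450 system were set beside the members. Of the partners and regulators listed, 17 were named on the array, by 25 probes, and 23 probes were tested. None passed in any of the planned comparisons or in the F test. On the averaged change between the times 2 of the 23 rose and 3 fell, beside 22.7% of all tested probes called, a share near theirs: both probes of the glucocorticoid receptor Nr3c1 were higher (1.02 ± 0.28 and 0.72 ± 0.25), and 1 of 2 probes each of Tiparp, itself a target of the aryl hydrocarbon receptor (-1.40 ± 0.37), of Rxrg (-1.14 ± 0.22) and of Hnf4a (-1.0 ± 0.31) was lower. Por read 0.00 ± 0.26, the receptor Ahr -0.49 ± 0.23 and its partner Arnt -0.78 ± 0.39 in that contrast. Of the conjugation and epoxide hydrolysis genes 9 were on the array and 6 were tested, with none called in any comparison, and the lowest in the averaged contrast was Nqo1 at -1.56 ± 0.59 (adjusted p = 0.0618). Other P450 families had 20 probes and 13 tested, with none called in the planned comparisons. In the averaged contrast 4 of the 13 were called, beside the same 22.7%: Cyp27b1, which activates vitamin D, and Cyp7b1, an oxysterol hydroxylase, rose (1.48 ± 0.29 and 0.90 ± 0.25). Cyp27a1, a sterol 27-hydroxylase, and Cyp26b1, which degrades retinoic acid, fell by 1.37 ± 0.39 and 2.64 ± 0.73 on the log2 scale.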

How the data were processed

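Total RNA was labelled with Cy3 and hybridised to single-colour Agilent rat arrays, 1 per sample, on 6 slides. The intensity values used are the processed signals per spot, deposited by the authors as scanner output of Feature Extraction 9.5.3.1, per the file headers. That software had subtracted background. Its 0 or 1 flags (other) came from the same deposited files. The authors' deposited ratio table was an alternative. It matched each processed signal over the array median and over the mean of the 2 untreated arrays, with a largest median shift of 0.011 log2 on any array. With the 75th percentile in place of the median that shift was 0.768, while r was 0.9983 to 0.9997 with either. Here, from log2 processed signals the 75th percentile of all 43379 spots other than controls was subtracted per array, outlier spots were left out, and spots of a probe were averaged. Probes entered the fit if any group had the well-above-background flag on all its arrays. limma 3.58.1 in R 4.3.3 fitted 7 group means over 20 arrays, with Benjamini-Hochberg adjustment and a threshold of 0.05, and was tested on simulated data. The number of arrays limits the precision.

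Replicate numbers did not pair the samples: over 57 same-numbered pairs the median correlation of deviations was -0.0268, and 12 exceeded 0.1. No 2 arrays of a group were identical. Names follow this rule: every called member, the 2 highest and 2 lowest by moderated t in each comparison, and forms listed by role, with values per array for called members, for the 6 of smallest F test p and for listed forms detected on all arrays. Members, lists and rule were chosen with earlier results of these data known, and 3 alternatives were chosen after the data were seen: the averaged time contrast, the 5′-to-3′ covariate and leaving out the 4 arrays of lowest detection. The alternatives were other background correction, scaling, filters, slide and replicate blocks, array weights, other spread estimates and each array left out. A gene annotation of rn3 was not used here, so probe positions carry no exon annotation.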

Additional observations from a re-analysis of the deposited data

Results flagged for a closer look

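Of the 27 member probes left out of the tests, 6 were well above background on 3 or more treated arrays and on neither untreated array. Cyp3a62 was so on 10 of 18 treated arrays, Cyp2c65 and Cyp2d10 on 6 each, Cyp2g1 and Cyp2r1 on 5 each, and Cyp4f2 on 3, all at 24 h. Each was read from a single spot per array, and no group had all its arrays flagged for any of them. There were 18 treated arrays and 2 untreated ones, and the difference in detection was not tested.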

How the results depend on the processing

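The counts below are of member probes past the threshold unless another quantity is named. With the less strict positive-and-significant flag 28 probes were detected on all 20 arrays, 25 were well above background on at least 15 arrays, and leaving out single arrays gave 12 to 17. The one call at 1/5 between the times became 0 with normexp background correction, median scaling, the deposited table, a filter of well above background on all 20 arrays, one probe per gene, the replicate block, a robust spread with trend, only the groups compared, the 4 arrays of lowest detection left out, and the 5′-to-3′ covariate. The F test count became 0 with median scaling, the deposited table, the all-array filter, one probe per gene, the replicate block, the 4 arrays left out and the 5′-to-3′ covariate. With the replicate block the averaged time contrast also moved, to 6 in place of 9, without Cyp2b3, Cyp2b2 and Cyp1a1. Beyond that contrast, the call at 1/5 and the F test, no count moved under this block. Replicate numbers did not pair the samples. At 1, the count between the times was 1 with normexp, 1 with quantile normalization, 3 with only the groups compared and 4 without the 4 arrays. The averaged time contrast gave 4 with the all-array filter and 0 with the 5′-to-3′ covariate.

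Other estimates of the spread gave more calls. With slide as a random block, whose estimated correlation was negative at -0.162, the counts were 6 for 1/5 at 24 h against untreated, 10 at 1/5 and 3 at 1 between the times, 7 for 1 against 1/5 at 24 h, 17 for the averaged contrast and 15 in the F test. With array weights, which spanned 0.0424 to 9.02, they were 15, 7 and 8 against untreated at 24 h for 1/25, 1/5 and 1, and 16, 6 and 15 between the times. They were 1 and 19 for 1 against 1/5 and 1/25 at 24 h, and at 6 h 1 for 1/5 against 1/25, 3 for 1 against 1/5 and 1 for 1 against 1/25. The interaction gave 5, the averaged contrast 21 and the F test 26. Leaving out single arrays gave 0 to 4 at 1/5 and 0 to 1 at 1 between the times, 0 to 2 and 0 to 4 against untreated at 24 h for 1/25 and 1/5, 0 to 2 for 1 against 1/5 at 24 h, 3 to 15 for the averaged contrast and 0 to 3 in the F test. The averaged contrast gave 3 without array 2 of the group at 1 or array 1 of the 1/25 group at 24 h, 4 or 5 without array 3 of that 1/25 group or array 1 or 3 of any group at 6 h, and 15 without array 2 of the 1/5 group at 24 h. The cause of these moves was not tested. No direction of a called member turned in any of these settings. Most family 3 and many 2C probes lay near background, which limits what could be compared.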
